A study of Rattus norvegicus with 35 samples.

Results

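The 209 transcripts described here are the olfactory receptor (OR) genes of the smaller autosomal clusters of the rat. They were chosen as array probes whose gene name begins with Olr, or whose description holds the words olfactory receptor, and whose position is on an autosome other than chromosomes 1, 3, 7, 8 and 10. They were 209 of the 1138 OR probes among the 41012 gene probes of the array. They lay on 11 autosomes, with 48 on chromosome 20, 36 on chromosome 15, 31 on chromosome 11, 27 on chromosome 5, 26 on chromosome 4, 19 on chromosome 13, 9 on chromosome 9, 8 on chromosome 17, 2 each on chromosomes 2 and 19, and 1 on chromosome 12. Of the 209, 204 matched a RefSeq gene, 3 of these being pseudogenes, and 198 carried a receptor family number. The families were 2 (46 members), 10 (30), 6 (25), 5 (24), 13 (21), 4 and 11 (13 each), 1 and 14 (8 each), 9 (7), 12 (2) and 7 (1), and none of these was a fish-like class I family.

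An OR is a G protein-coupled receptor carried on the cilia of olfactory sensory neurons, where odorant binding starts a cyclic AMP signal. A mature neuron expresses a single OR gene, from a single allele, so that the level of an OR transcript in whole epithelium follows both the number of neurons that chose the gene and the amount of RNA in each, which these bulk data cannot tell apart. OR genes stand in tandem clusters, and several of the clusters treated here border immune loci: that of chromosome 20 adjoins the major histocompatibility complex, that of chromosome 15 the T cell receptor alpha locus, and a cluster of chromosome 4 the T cell receptor beta locus.

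RNA of the olfactory epithelium of Brown Norway rats was measured on 1-colour 60-mer arrays, to compare receptor repertoires between individuals and ages. The newborn group held 19 pups of 3 to 5 days, of unknown sex, from 4 litters, with 4 pups in litter 1 (L1) and 5 in each of L2, L3 and L4, and epithelium was taken from one nasal side only. The adult group held 4 males of 9 weeks and the old group 4 males of 22 months, each rat with 2 arrays, 1 for each nostril (A and B). Age comparisons thus also compare animals of unknown sex with males. A level below is log2 of the background-subtracted signal over the array median, set to at least 0.01 of that median, and a change is a difference of group means on this scale, newborn being the mean of the 4 litters.

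The arrays of the adult rats were read on scan days of their own and with another release of the image software (9.5.1.1, against 9.5.3.1 for all others), so that for every difference between adult rats and the other groups age and scan day cannot be told apart. L1 was scanned on the same day as the old rats. Values of L1 against old rats are therefore given beside those of all newborn rats for the counts and for some of the receptors. The tissue carried its defining markers: of 12 measured markers of mature olfactory sensory neurons, 10 were above background on every array, and Omp, the olfactory marker protein, had mean levels of 5.16 in pups, 7.57 in adults and 8.26 in old rats. The summed level of these 12 markers was 7.90 to 9.03 in pups, 10.39 to 10.81 in adult rats and 11.00 to 11.46 in old rats. Of the 12, 8 were called lower and 0 higher in newborn than in adult rats, and 10 lower and 1 higher than in old rats. The 1 that was higher was Slc8a3, by 2.37 on the log2 scale. The 13 markers of immature neurons gave summed levels (over 11 of them) of 10.85 to 11.88, 10.42 to 10.69 and 10.30 to 10.61. Among other cells, the summed sustentacular markers were at 11.66 to 12.70, 12.56 to 12.71 and 13.45 to 13.61, ciliated respiratory markers at 8.81 to 10.25, 8.86 to 9.43 and 9.64 to 9.77, bone and cartilage markers at 11.29 to 12.90, 11.30 to 12.19 and 8.89 to 9.82, and skeletal muscle markers at 5.57 to 9.25, 3.97 to 4.91 and 5.74 to 6.34. The part of these cell types in the receptor differences was not tested.

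The probes on which the results turn are printed first, because receptors of a cluster resemble each other and a probe can read its neighbour. Each is 60 bases, 5′ to 3′, with capitals for the longest run of at least 12 bases that it shares with another OR probe of the array, and positions are in the rat build rn3 that the array annotation gives. The receptors expressed in newborn but in neither adult nor old rats were Olr803 (chr4:70548541-70548600, minus strand), Olr1595 (chr13:90118490-90118549, plus strand), Olr1729 (chr20:1211764-1211823, minus strand) and Olr1733 (chr20:1290708-1290767, minus strand). Olr803 shared a run of 19 bases with Olr387, a receptor outside these clusters, Olr1733 shared 20 bases with Olr1739, and the other two shared no such run. The runs compare probes with probes and not with the transcripts of other receptors. A probe without a shared run is thus not shown to be specific.
Olr803: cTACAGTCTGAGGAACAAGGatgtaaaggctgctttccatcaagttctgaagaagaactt
Olr1595: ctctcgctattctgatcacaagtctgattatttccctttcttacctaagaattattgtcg
Olr1729: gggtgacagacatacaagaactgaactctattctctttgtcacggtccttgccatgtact
Olr1733: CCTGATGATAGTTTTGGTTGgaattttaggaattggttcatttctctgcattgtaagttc

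The receptors expressed in both adult and old rats with no newborn array above background were Olr1345 (chr9:91922655-91922714, minus), Olr1601 (chr13:90290196-90290255, plus), Olr1608 (chr15:25943752-25943811, minus), Olr1610 (chr15:26022050-26022109, minus), Olr1611 (chr15:26035941-26036000, plus) and Olr1746 (chr20:1489921-1489980, plus). Olr1746 shared 26 bases with its neighbour Olr1748. For Olr1601, Olr1608 and Olr1611 no run of 12 bases was shared with any other OR probe, which leaves their match to other transcripts untested.
Olr1345: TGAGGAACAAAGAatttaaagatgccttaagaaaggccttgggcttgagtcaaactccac
Olr1601: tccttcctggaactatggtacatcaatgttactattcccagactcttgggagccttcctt
Olr1608: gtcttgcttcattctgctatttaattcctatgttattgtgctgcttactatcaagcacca
Olr1610: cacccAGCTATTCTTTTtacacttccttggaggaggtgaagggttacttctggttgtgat
Olr1611: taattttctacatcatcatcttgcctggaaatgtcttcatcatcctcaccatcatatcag
Olr1746: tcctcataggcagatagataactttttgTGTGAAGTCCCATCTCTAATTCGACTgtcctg

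Receptors that differed between adult and old rats are represented by Olr837 (chr5:60267074-60267133, minus), Olr844 (chr5:70091299-70091358, plus) and Olr854 (chr5:76812701-76812760, minus) of chromosome 5, by Olr801 (chr4:70525641-70525700, minus) of chromosome 4 and by Olr1690 (chr20:581287-581346, minus) of chromosome 20. Olr844 shared 20 bases with Olr850 of the same cluster and Olr1690 shared 26 bases with its neighbour Olr1689.
Olr837: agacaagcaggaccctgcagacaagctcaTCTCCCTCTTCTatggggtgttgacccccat
Olr844: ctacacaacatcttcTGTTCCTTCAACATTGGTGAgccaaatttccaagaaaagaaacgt
Olr854: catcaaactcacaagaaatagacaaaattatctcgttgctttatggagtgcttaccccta
Olr801: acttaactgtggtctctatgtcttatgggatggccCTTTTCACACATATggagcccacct
Olr1690: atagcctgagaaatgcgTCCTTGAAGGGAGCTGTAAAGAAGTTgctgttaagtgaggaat

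Fewer receptors of these clusters were above background in pups than in adult or old rats, on arrays where the number of all probes above background was about the same. A probe was above background on an array when 4 quality flags of the image software held together. Per rat, 74 to 146 of the 209 were above background in newborn rats (mean 115 ± 18.2, SD, n = 19, median 121). The 4 adult rats had 157, 159, 158.5 and 136.5 (mean 153 ± 10.9) and the 4 old rats 152, 161.5, 157.5 and 160 (mean 158 ± 4.17), the 2 arrays of a rat being averaged. Over all 41012 probes the ranges overlapped, with 24484 to 28361 in pups, 26577.5 to 27769.5 in adult and 26350.5 to 26817.5 in old rats. The adult arrays were brighter, with array median signals of 81.6 to 162, against 42.1 to 87.7 in pups and 37.1 to 55.3 in old rats. The part of this brightness in the counts was not tested. The lowest adult value came from adult rat 16, whose nostril B array had 106 receptors above background, while the other adult and old arrays had 144 to 173.

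**Figure D1:**
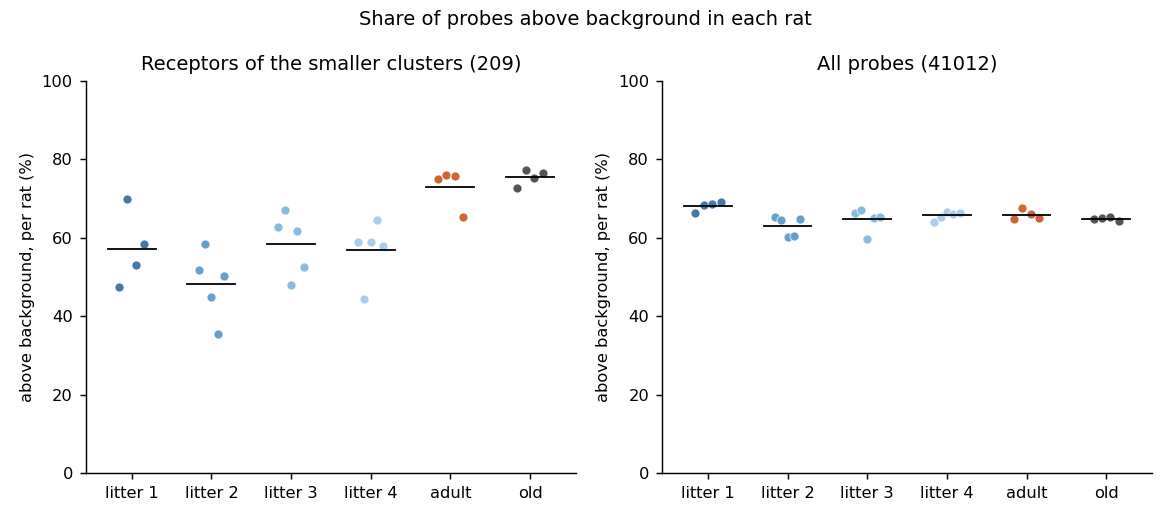
Share of probes above background in each rat (percent, y axis) by litter, adult and old group, for the 209 receptors (left) and for all 41012 probes (right). Each point is 1 rat and each bar is the group mean. Pups had 74 to 146 of the 209 above background and lie mostly below adult and old rats, while the values over all probes overlap.

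A receptor was called expressed in a litter when at least 3 of its arrays were above background, and in adult or old rats when at least 6 of the 8 arrays were. By this rule at least 1 litter expressed 134 of the 209 and all 4 litters 88, while adult rats expressed 145 and old rats 153, and 83 were shared by all 6 groups. The 929 other OR probes had 483, 329, 516, 542 and 310 by the same counts, and all 41012 probes had 28135, 25087, 26096, 25676 and 23668. Of the 209, 18 were expressed at both older ages without being expressed in a litter, and 4 in a litter but in neither adult nor old rats. Another 17 were expressed in old and not in adult rats, and 9 in adult and not in old rats. Over all 41012 probes these numbers were 218, 1784, 1046 and 1466, in the same order. The 4 receptors expressed only in a litter were thus a smaller share of the 209 than such probes were of all probes. Above background on no array were the 15 receptors Olr392, Olr813, Olr852, Olr853, Olr1528, Olr1533, Olr1588, Olr1591, Olr1592, Olr1609, Olr1620, Olr1629, Olr1662, Olr1724 and Olr1726, beside 6859 of all probes. With the positive-signal flag alone in place of the 4 flags, 166 were expressed in all 4 litters and 161 in all 6 groups.

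The counts were also taken chromosome by chromosome. On chromosome 9, 5 of 9 receptors were expressed in at least 1 litter, and 8 in adult and 8 in old rats. Chromosome 17 had 5, 7 and 7 of 8, chromosome 15 had 20, 25 and 26 of 36, chromosome 20 had 29, 34 and 33 of 48, and chromosome 13 had 11, 13 and 12 of 19. On chromosome 11 the counts were 24, 24 and 23 of 31. Chromosome 4 had 20, 16 and 22 of 26 and chromosome 5 had 17, 14 and 18 of 27. The newborn count joins 4 litters, and litter by litter chromosome 4 had 19, 14, 19 and 18 and chromosome 5 had 15, 11, 13 and 14 in L1 to L4, so that adult rats were not below every litter. All 4 litters shared 14 receptors on chromosome 4 and 10 on chromosome 5. No test of the difference between chromosomes was made.

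**Figure D2:**
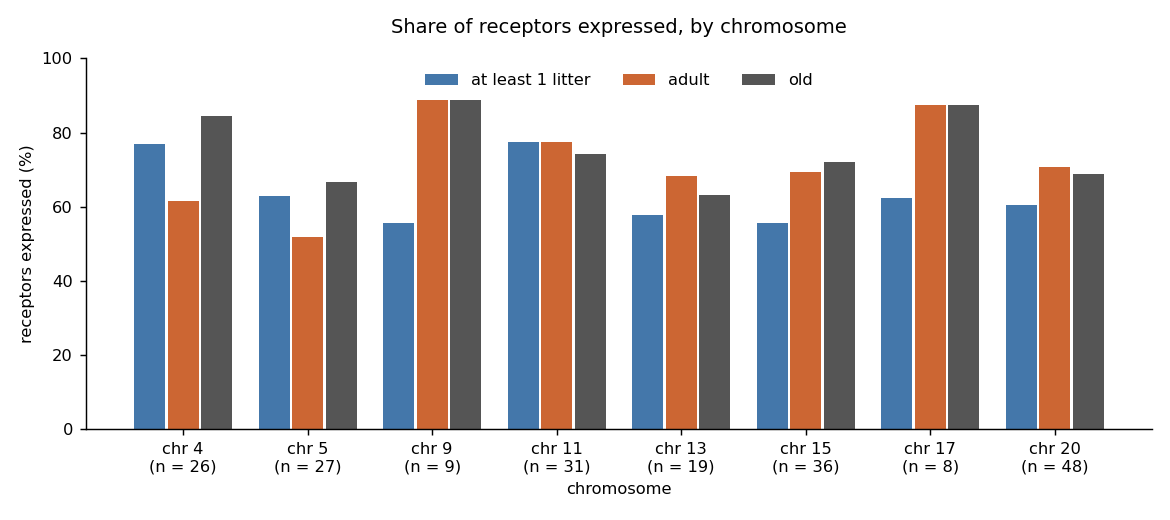
Share of receptors expressed (percent, y axis) in at least 1 of the 4 litters, in adult and in old rats, for the 8 chromosomes with more than 2 receptors. The n under each chromosome is its number of receptors. The newborn bars join 4 litters, and they stand above the adult bars on chromosomes 4 and 5 and below them on chromosomes 9, 13, 15, 17 and 20.

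The 4 receptors expressed in pups and in neither older group were low signals. Olr803 (Or2r3b) lies within the chromosome 4 cluster near the T cell receptor beta locus and was above background on 13 of 19 newborn arrays and on none of the 16 adult and old arrays. Its level in pups was −4.41 at the lowest, −1.62 at the median and −0.32 at the highest. The adult rats had −3.41, −5.92, −3.67 and −5.90, and the old rats −3.97, −3.15, −2.85 and −4.08. Of the 19 pups, 18 were above every adult and every old rat, and 1 pup of L1, at −4.41, was within the adult range and below the old rats. Because no adult or old array rose above background, only bounds are given: newborn rats exceeded adult rats by at least 1.57-fold (limma, adjusted p = 1.8e-05) and old rats by at least 1.36-fold (adjusted p = 0.004). Leaving out old rat 17 or 20 ended the second call, as did comparing L1 alone with old rats (adjusted p = 0.07), and normexp background correction or a detection floor ended both. An adjusted p printed beside a bound, here and below, belongs to the fitted change and not to the bound.

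Olr1595 (Or6k8, chromosome 13) was above background on 17 newborn, 3 adult and 1 old array. Pups had −2.43, −0.87 and −0.11 as the lowest, median and highest level. Adult rats had −2.43, −2.71, −2.60 and −4.34, and old rats −2.67, −2.59, −2.43 and −1.82. In 18 of 19 pups the level was above that of every adult and every old rat. Olr1595 was 3.96-fold higher in newborn than adult rats (log2 change 1.99 ± 0.31, SE, adjusted p = 7.5e-06) and exceeded the old rats 2.53-fold (1.34 ± 0.31, adjusted p = 0.00081), while L1 against old rats gave 0.93 ± 0.40 (adjusted p = 0.065). These folds rest partly on adult and old signals below background. Both calls of all newborn rats ended with normexp correction, where 0 receptors were called higher in newborn than adult or old rats.

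Olr1729 of the chromosome 20 cluster, which carries no family name here, was above background on 17 newborn, 3 adult and 5 old arrays. Pups had −2.34, −1.21 and −0.69, adult rats −2.16, −3.00, −2.43 and −4.31, and old rats −2.04, −1.19, −1.69 and −1.74. The pups stood above the adult rats in 18 of 19 cases but overlapped the old rats. It was 3.23-fold higher in newborn than adult rats (1.69 ± 0.31, adjusted p = 5.2e-05), a call that ended with normexp correction, and the change against old rats was 0.38 ± 0.31 (adjusted p = 0.32). Old rats exceeded adult rats 2.48-fold (adjusted p = 0.0097).

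Olr1733 (Or1o2b), further along the same cluster, was above background on 9 newborn, 4 adult and 0 old arrays. Pups had −2.97, −1.83 and −1.28, adult rats −2.68, −2.08, −1.54 and −2.63, and old rats −4.24, −3.27, −5.75 and −5.43. All 19 pups were above all 4 old rats, as were all 4 adult rats, and pups and adult rats overlapped. Olr1733 was at least 1.15-fold higher in newborn than old rats (adjusted p = 1.7e-07), a call that ended with normexp correction, and newborn against adult rats gave 0.27 ± 0.32 (adjusted p = 0.51).

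The opposite pattern, expression in both adult and old rats with no newborn array above background, was found for 6 receptors, of which 3 lay at 25.9 to 26.0 Mb of chromosome 15. Of all 41012 probes, 61 had this pattern. Olr1610 was above background on all 16 adult and old arrays. Pups had −6.64, −3.87 and −2.87, the lowest being the floor. Adult rats had 0.27, 0.34, 0.72 and 0.40, and old rats 1.09, 1.23, 1.21 and 1.5. Every pup was below every adult and old rat, and Olr1610 was at least 6.72-fold lower in newborn than adult rats (adjusted p = 6.6e-07), and against old rats the bound was 11.9-fold (adjusted p = 7.6e-08). No array of L1 was above background, and the comparison of L1 with old rats was called (adjusted p = 1.3e-06).

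Its neighbour Olr1611 (Or4n4) had −6.64, −3.36 and −2.14 in pups, −1.10, −1.18, −1.40 and −1.37 in adult rats, and 0.32, 0.57, 0.43 and 0.94 in old rats. The 3 groups did not overlap, with pups at least 2.06-fold below adult rats (adjusted p = 0.00051), and below old rats by at least 7.29-fold (adjusted p = 6.2e-07). The difference between adult and old rats, −1.83 ± 0.71, did not pass the test (adjusted p = 0.041). Olr1608 (Or4k2) had −6.63, −3.58 and −2.23 in pups, −1.52, −1.27, −1.34 and −2.23 in adult rats, and −0.14, −0.10, −0.21 and −0.04 in old rats. The highest pup was just below the lowest adult rat, both being −2.23 after rounding, and all pups and adult rats were below the old rats. It was at least 1.64-fold lower in newborn than adult rats (adjusted p = 0.0028), a call lost without adult rat 13, 14 or 15, and at least 4.53-fold lower than in old rats (adjusted p = 1.7e-05). Between Olr1608 and Olr1610, Olr1609 was above background on no array.

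Of the other three, Olr1601 (Or6p1, chromosome 13) had −6.64, −3.91 and −2.65 in pups, −0.37, −0.49, 0.01 and −0.66 in adult rats, and 0.10, 0.08, −0.31 and 0.63 in old rats. It was at least 3.83-fold lower in newborn than adult rats (adjusted p = 1.7e-06), and against old rats the bound was 5.44-fold (adjusted p = 4.1e-07). Olr1345 (Or6b3, chromosome 9) had −6.64, −3.83 and −2.68 in pups, −0.83, −1.23, −1.29 and −1.53 in adult rats, and −1.30, −1.45, −1.48 and −1.16 in old rats, with bounds of 2.14-fold and 1.96-fold (adjusted p = 9.7e-05 and 0.00019). L1 alone against old rats was not called for Olr1345 (limma, adjusted p = 0.011). Olr1746 (Or2h2c, chromosome 20) had −5.75, −3.38 and −2.55 in pups, −1.61, −1.22, −1.45 and −1.67 in adult rats, and −1.83, −0.90, −1.57 and −1.11 in old rats, with bounds of 1.77-fold and 1.94-fold (adjusted p = 1.7e-05 and 9.1e-06). In each of the 3 every pup was below every adult and old rat.

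**Figure D3:**
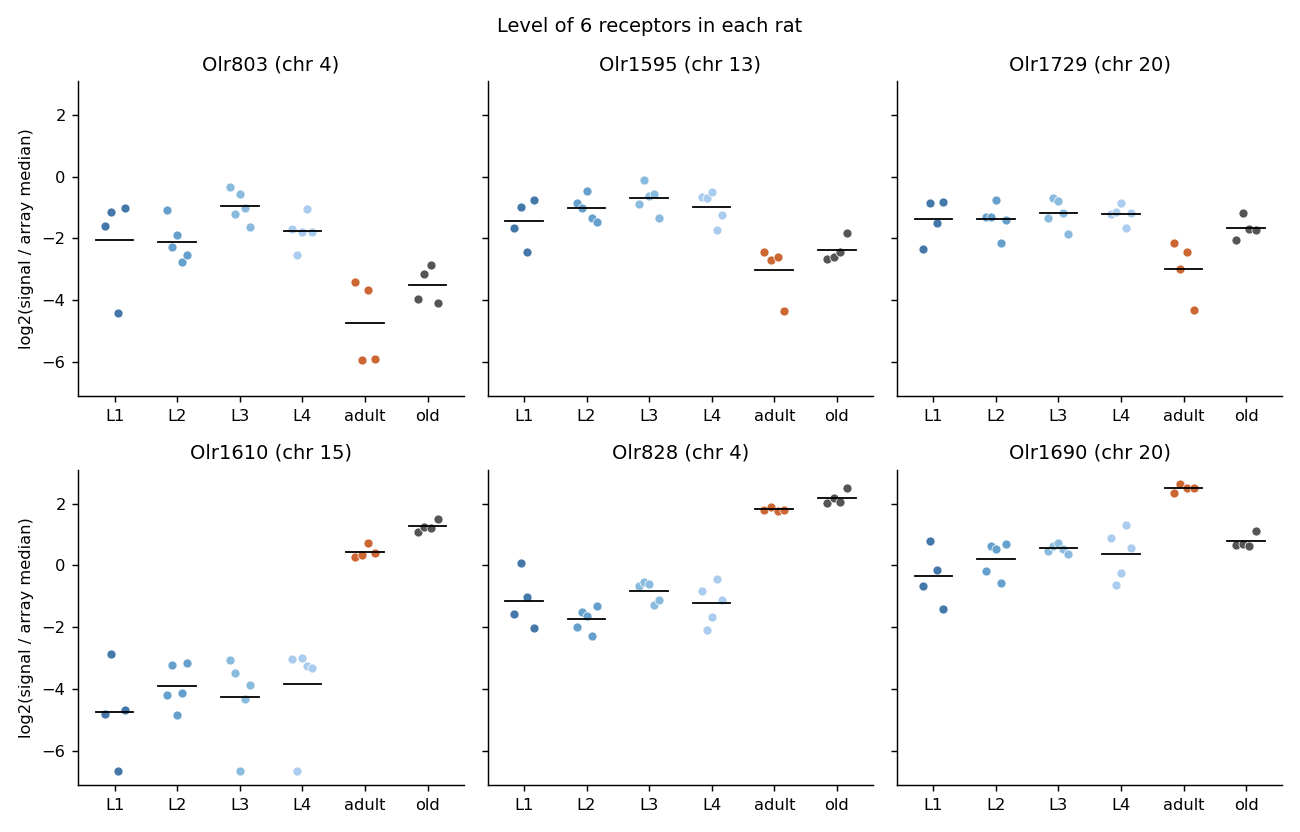
Level of 6 receptors in each rat, as log2 of signal over array median (y axis, the lowest possible value being −6.64), by litter (L1 to L4), adult and old group. Each point is 1 rat and each bar the group mean. Olr803 and Olr1595 stand higher in pups than in nearly all older rats, Olr1729 stands low in adult rats, Olr1610 and Olr828 stand lower in all pups, and Olr1690 stands highest in adult rats.

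Over all 209 receptors, most that differed with age were lower in pups. A receptor was called at an adjusted p under 0.01 (limma, over all probes) with at least a 2-fold difference. Against adult rats, 98 were lower in newborn rats, where 9.31% of all probes were called lower, and 8 were higher, where 11.8% of all probes were called higher. Against old rats, 140 were lower (9.27% of all probes) and 4 were higher (9.47%). Not all of these were expressed in the group where they were higher. Those that were numbered 88 of the 98 and 6 of the 8 against adult rats, and 125 of the 140 and 3 of the 4 against old rats. Within the shared scan day, L1 had 128 lower than old rats (8.02% of all probes) and 2 higher (7.78%). The median change of the 209 was −1.04 against adult and −1.77 against old rats, beside −0.75 and −1.40 for the 929 other OR probes and 0.10 and −0.04 for all probes. The change was below 0 for 78.9% of the 209 against adult rats and for 95.7% against old rats, beside 73.0% and 82.5% of the other OR probes and 43.8% and 52.2% of all probes. The sum of mature neuron markers moved the same way, as given above.

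The medians and counts changed with the treatment of signals near background. With every signal raised to the detection level of its array, the medians were −0.53 against adult and −1.33 against old rats, and with normexp background correction and quantile normalization 38 receptors were called lower than in adult rats and 54 lower than in old rats.

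**Figure D4:**
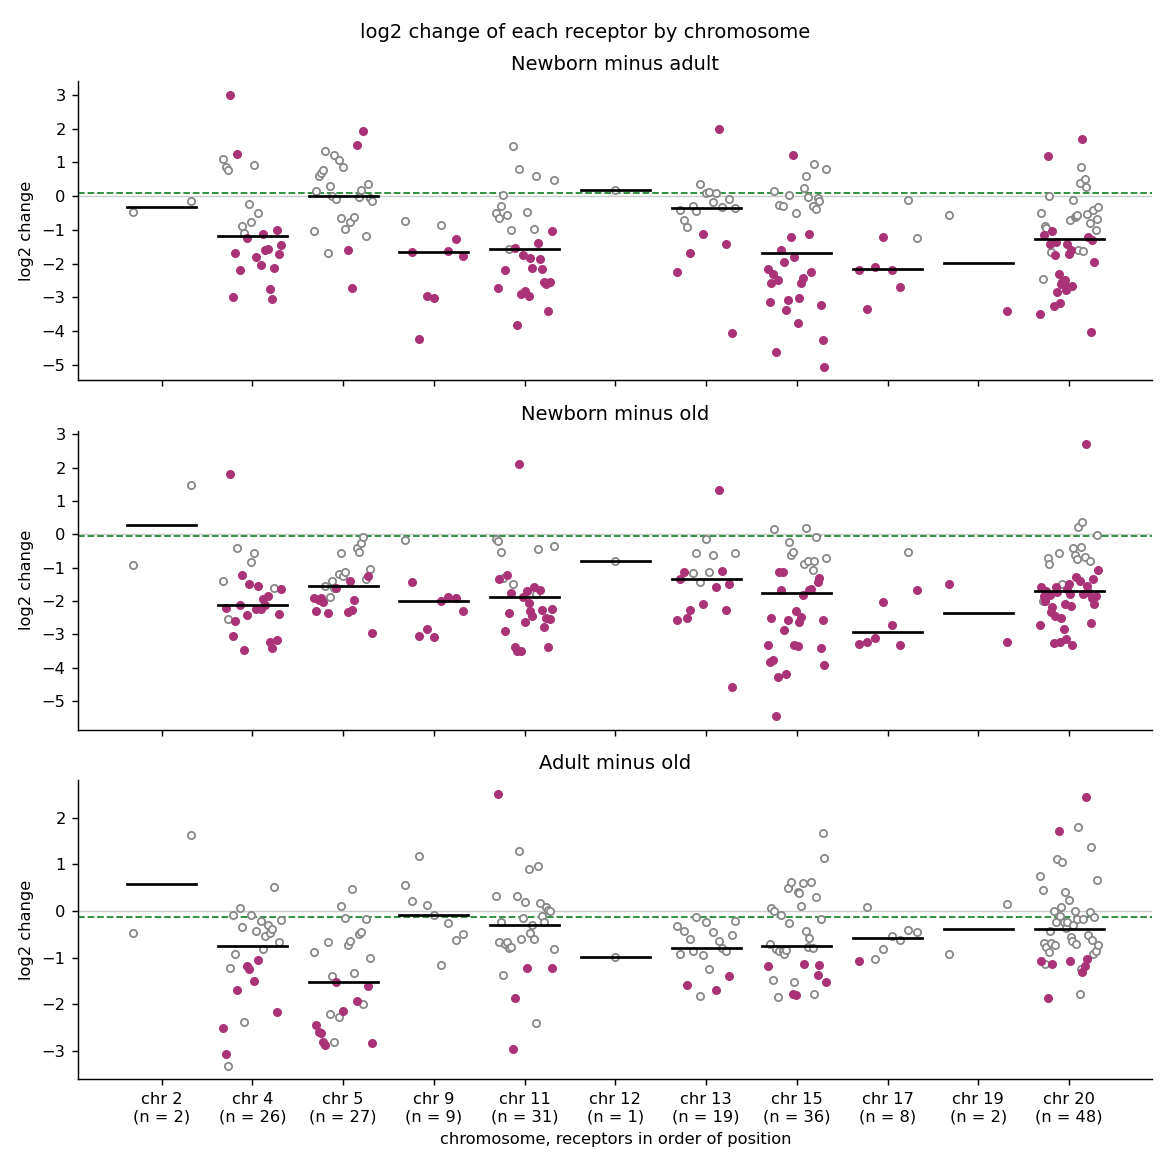
log2 change of each receptor (y axis) for newborn minus adult, newborn minus old and adult minus old rats, by chromosome with receptors in order of position. Filled points were called (adjusted p under 0.01 and at least 2-fold), open points were not, black bars are chromosome medians, and the dashed line is the median of all probes. Most points lie below 0 in the upper panels, and on chromosome 5 the median is near 0 against adult rats and −1.54 against old rats.

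On chromosome 4 the 26 receptors formed a lone gene at 68.4 Mb, 15 receptors from 70.5 to 71.3 Mb and 10 from 152.9 to 153.2 Mb. Against adult rats 15 were lower and 2 higher in pups (median −1.18), and against old rats 19 were lower and 1 higher (median −2.12). With the detection floor the medians were −0.86 and −1.90. The 10 distal receptors are Or13a1 and the Or6d subfamily, and all 10 were lower in newborn than adult rats (median −1.65) and 9 of 10 lower than in old rats (median −2.18). Leaving out any of the 4 adult rats left a count of 8, and normexp correction 5. Among them Olr828 (Or6d13c) had −2.28, −1.28 and 0.09 in pups, 1.80, 1.88, 1.77 and 1.78 in adult rats, and 2.03, 2.18, 2.04 and 2.50 in old rats, so that no pup reached the older rats. It was 8.24-fold lower in newborn than adult rats (−3.04 ± 0.27, adjusted p = 1.7e-09) and 10.7-fold lower than in old rats (−3.42 ± 0.27, adjusted p = 3.9e-10), with −3.33 ± 0.35 for L1 against old rats.

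The proximal 15 were mixed. Olr804 (Or10ac1) was above background on 1 newborn array and on all 16 adult and old arrays. Pups had −4.06, −2.87 and −1.87, adult rats −0.21, 0.50, 0.11 and −0.22, and old rats 0.00, −0.17, −0.07 and 0.72. The older groups overlapped, and pups were below both (adjusted p = 1.8e-08 against adult rats), the fitted 7.90-fold resting on newborn signals below background in 18 pups. Olr803, above, is its neighbour. Olr810 (Or2q1) was above background only on 6 old arrays, with old rats at −1.63, −0.89, −1.59 and −0.68 and adult rats at −2.67, −3.82, −3.85 and −3.96, and was at least 2.17-fold lower in newborn than old rats (adjusted p = 0.00011).

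On chromosome 5 few receptors were called against adult rats. Against adult rats 2 of 27 receptors were lower and 2 higher in pups (median −0.00), while against old rats 13 were lower and 0 higher (median −1.54, or −0.88 with the detection floor). The receptors of 60.2 to 60.3 Mb (4), 70.0 to 70.4 Mb (9) and 76.8 Mb (1), mainly of the Or13c subfamily, gave no call against adult rats and 7 of 14 lower against old rats. Olr834 (Or13j1) had −2.32, −0.31 and 0.46 in pups, 0.35, −0.82, 0.02 and −1.43 in adult rats, and 1.85, 2.21, 1.44 and 2.39 in old rats. Pups and adult rats overlapped, and all were below the old rats, with a 4.93-fold difference between newborn and old rats (−2.30 ± 0.33, adjusted p = 3e-06).

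The other 13 receptors of chromosome 5, from 139.1 to 139.5 Mb, are of the Or13p and Or10ak subfamilies. Olr858 (Or13p3) was above background on 0 newborn, 7 adult and 2 old arrays and was at least 1.61-fold lower in newborn than adult rats (adjusted p = 0.0012). Olr856 (Or13p9), above background on 13 newborn and all adult and old arrays, was 4.99-fold lower in newborn than old rats (−2.32 ± 0.32, adjusted p = 1.9e-06). Olr860 (Or10ak14b) had −2.44, −1.89 and −1.13 in pups, −3.10, −3.37, −2.80 and −4.11 in adult rats, and −1.44, −1.16, −1.46 and −1.65 in old rats. Adult rats stood below both other groups, by 2.87-fold against pups (1.52 ± 0.21, adjusted p = 1.7e-06) and 3.78-fold against old rats (−1.92 ± 0.27, adjusted p = 5.2e-06), on 1 adult array above background. The call against pups ended with normexp correction. Olr866 (Or10ak7f), also called higher in newborn than adult rats (adjusted p = 0.007), was above background on a single newborn array, at a level of 0.74.

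On chromosome 9, 7 of 9 receptors were lower in newborn than adult rats (median −1.64, or −1.08 with the detection floor) and 8 lower than in old rats (median −1.99, or −1.22). The Olr genes lie from 91.9 to 92.0 Mb, and TC541797, alone at 11.6 Mb, was called in neither comparison, nor Olr1349 against adult rats. Olr1346 (Or9s23b) had −3.37, −1.83 and −1.07 in pups, 0.80, 1.04, 1.66 and 0.97 in adult rats, and 1.19, 1.20, 0.87 and 1.53 in old rats. It was about equally far below both older groups, 8.08-fold and 8.54-fold (−3.01 ± 0.31 and −3.09 ± 0.31, adjusted p = 1.6e-08 and 1.5e-08). Olr1346 was above background on 12 newborn arrays and on all adult and old arrays, so these folds rest partly on newborn signals below background. Olr1344 (Or6b2b) was above background on 6 adult arrays alone, with adult rats at −1.84, −1.98, −1.68 and −2.37, and was at least 1.27-fold lower in newborn rats. The limma adjusted p of 7.4e-10 is that of the fitted change of −4.23 ± 0.36. That change rests on newborn signals below background, their median being the floor of −6.64.

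On chromosome 11, 18 of 31 receptors were lower in newborn than adult rats and 0 higher (median −1.56), and 22 were lower and 1 higher than in old rats (median −1.88). The 6 receptors from 83.6 to 83.8 Mb, of the Or2aj, Or2l and Or2m subfamilies, were all lower than in both older groups, with medians of −2.54 and −2.53, also with the detection floor. Of these, Olr1568 (Or2l5) had −6.28, −2.02 and −1.04 in pups, 1.14, 1.1, 0.80 and 0.86 in adult rats, and 0.84, 0.76, 0.63 and 1.61 in old rats, a 10.6-fold difference from adult rats (−3.41 ± 0.55, adjusted p = 1.3e-05). Olr1568 was above background on 8 newborn arrays and on all adult and old arrays. Its fold thus rests mostly on newborn signals below background. In the main cluster of 23 (41.8 to 42.6 Mb), of the Or5h, Or5k and Or5ac subfamilies, 12 were lower than in adult and 16 lower than in old rats. Olr1542 (Or5k3) had −4.19, −1.88 and 0.09 in pups, 1.88, 1.99, 1.45 and 1.82 in adult rats, and 1.53, 1.30, 1.04 and 1.94 in old rats. All pups were below all older rats, 14.1-fold on average against adult rats (−3.82 ± 0.46, adjusted p = 2e-07). Olr1542 was above background on 11 newborn arrays and on all adult and old arrays. Its fold thus rests partly on newborn signals below background.

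In the same cluster Olr1545 (Or5h25b) had −2.19, −0.79 and 0.12 in pups, 1.88, 2.14, 2.02 and 1.84 in adult rats, and 2.39, 2.54, 2.30 and 3.04 in old rats. It was 11.4-fold lower in newborn than old rats (−3.51 ± 0.27, adjusted p = 2.1e-10). The single receptor higher in pups than in old rats was Olr1543 (Or5ac15), above background on 2 newborn arrays and on no adult or old array (adjusted p = 8.6e-06).

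On chromosome 13, which holds Olr1595 and Olr1601, 5 of 19 receptors were lower and 1, Olr1595, higher than in adult rats (median −0.34), and 11 were lower and 1 higher than in old rats (median −1.33, or −1.13 with the detection floor). Olr1576 (Or10j5) was above background on 1 newborn, 7 adult and 8 old arrays. Pups had −3.79, −2.68 and −1.82, adult rats −0.19, −0.65, −0.26 and −0.83, and old rats −0.51, 0.18, −0.28 and −0.06. The pups were below all older rats, by 4.79-fold against adult rats (−2.26 ± 0.25, adjusted p = 4.4e-08) and 5.96-fold against old rats (−2.58 ± 0.25, adjusted p = 7.7e-09), with newborn signals below background in 18 pups.

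On chromosome 15, 21 of 36 receptors were lower and 1, Olr1622, was higher in newborn than adult rats, and 25 were lower and 0 higher than in old rats. The medians of −1.70 and −1.75 were −0.37 and −1.04 with the detection floor, and 13 of the 36 had no newborn array above background. The 3 receptors from 12.4 to 12.6 Mb, of the Or2t subfamily, were lower than in both older groups, with a median of −2.58 against adult rats. In the cluster of 32 from 25.9 to 28.0 Mb the largest change against adult rats was that of Olr1645 (Or4e5), while against old rats that of Olr1610 was larger. Olr1645 had −6.64, −1.59 and −0.86 in pups, 2.96, 2.83, 2.61 and 2.74 in adult rats, and 1.82, 1.36, 1.43 and 1.97 in old rats. The groups did not overlap, and newborn rats were 33.1-fold below adult rats (−5.05 ± 0.77, adjusted p = 5.6e-06) and 15.0-fold below old rats (−3.91 ± 0.77, adjusted p = 0.00016), with 12 of 19 newborn arrays above background. Over the Or4 family as a whole, 10 of 13 receptors were lower than in adult rats (median −2.47).

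On chromosome 17, 6 of 8 receptors were lower in newborn than adult rats (median −2.14) and 7 lower than in old rats (median −2.92, or −2.43 with the detection floor). Olr1660 (Or2ad1) had −3.60, −1.54 and −0.54 in pups, 0.74, 1.14, 1.06 and 0.82 in adult rats, and 1.62, 1.61, 1.60 and 1.46 in old rats. It was 6.43-fold lower in newborn than adult rats (−2.68 ± 0.35, adjusted p = 7.2e-07) and 9.93-fold lower than in old rats (−3.31 ± 0.35, adjusted p = 4e-08). Olr1660 was above background on 14 newborn arrays and on all adult and old arrays, so these folds rest partly on newborn signals below background. Olr1653 (Or14p1), above background on 1 newborn array and on all adult and old arrays, had −6.64, −2.88 and −1.74 in pups, −0.15, 0.01, 0.23 and −0.20 in adult rats, and −0.08, −0.51, −0.07 and 0.19 in old rats (adjusted p = 6.2e-05 against adult rats, with a fitted 10.1-fold that likewise rests on signals below background). Its neighbour Olr1652 (Or9s18) rose through the 3 groups, from −1.79, −0.77 and −0.04 in pups to 1.26, 1.57, 1.58 and 1.30 in adult rats and 2.17, 2.52, 2.46 and 2.85 in old rats. Each step passed the test (adjusted p = 7.2e-09 for newborn against adult and 0.0032 for adult against old rats).

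Chromosomes 2, 12 and 19 held 5 receptors. On chromosome 19, Olr1667 (Or10k2), above background on 1 of 19 newborn arrays and on all adult and old arrays, had −6.64, −2.54 and −1.92 in pups, 0.32, 0.54, 0.67 and 0.31 in adult rats, and 0.49, −0.17, 0.08 and 0.80 in old rats, and was lower in newborn than adult rats (adjusted p = 2.7e-05). The fitted 10.5-fold rests on newborn signals below background in 18 pups. Olr1666 (Or7c19), above background on every array, differed 1.48-fold between newborn and adult rats (adjusted p = 0.012) and was 2.82-fold lower in newborn than old rats (adjusted p = 3.7e-07). The lone receptors Olr390 (Or13l2, chromosome 2) and Olr1572 (chromosome 12) were above background on every array and changed by less than 2-fold in every age comparison. Olr390 had 0.53, 0.97 and 1.90 in pups, 1.60, 1.55, 1.56 and 1.52 in adult rats, and 1.77, 2.21, 2.21 and 1.89 in old rats. Olr1572 had 0.69, 1.07 and 1.31 in pups, 1.14, 1.01, 0.74 and 0.53 in adult rats, and 1.75, 1.90, 1.91 and 1.79 in old rats, where the old rats stood above all others by 1.98-fold against adult rats (adjusted p = 9.7e-07). Olr392, the other receptor of chromosome 2, was above background on no array.

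On chromosome 20, 23 of 48 receptors were lower and 2, Olr1679 and Olr1729, higher in newborn than adult rats (median −1.25, or −0.79 with the detection floor), and 33 were lower and 1, Olr1733, higher than in old rats (median −1.71, or −1.27). The Or14j subfamily had 6 of 7 receptors lower than in adult rats (median −2.54) and the Or10al subfamily 5 of 6 (median −1.65), while the Or1o subfamily had 1 of 8 (median −0.60). Olr1742 (Or1o2) was that receptor, above background on 7 adult arrays and on no other, with adult rats at −1.30, −1.0, −1.12 and −1.99, and at least 1.95-fold higher in adult than newborn rats (adjusted p = 1.4e-06). Of the 8 Or1o receptors only 2 were expressed in adult rats, and 2 were above background on no array. Receptors not detected in adult rats can hardly show a lower level in pups, so the subfamily counts do not compare alike. Olr1668 (Or2n1e), above background on 6 adult, 2 old and 0 newborn arrays, was at least 1.41-fold higher in adult than newborn rats (adjusted p = 2.4e-06).

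The Or2g receptors Olr1702 and Olr1686 were above background on all adult and old arrays and on 1 and 7 of the 19 newborn arrays, so their folds rest mostly on newborn signals below background. Olr1702 (Or2g25) had −5.08, −2.85 and −1.93 in pups, −0.50, −0.68, 0.01 and −0.07 in adult rats, and 0.27, 0.37, 0.15 and 0.53 in old rats (9.92-fold below old rats, adjusted p = 1.2e-08). Olr1686 (Or2g7) had −3.71, −2.08 and −1.61 in pups, 0.53, 0.53, 1.27 and 1.09 in adult rats, and 0.63, 0.74, 0.84 and 1.23 in old rats (9.49-fold below adult rats, adjusted p = 3.4e-08). Neither receptor had a pup within the range of the older rats.

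Between adult and old rats fewer receptors differed. Of the 209, 40 were lower in adult than old rats, where 7.07% of all probes were called lower, and 3 were higher, where 5.58% were called higher. The median change was −0.63, beside −0.57 for the other OR probes and −0.13 for all probes. The count of lower receptors was 25 without adult rat 16, whose nostril B array had the fewest receptors above background, 31 without adult rat 14, 9 with normexp correction and 22 with the scan day as a random block. By chromosome, 10 of the 40 were on chromosome 5 (median of its 27 receptors −1.51), 8 on chromosome 4 (−0.74), 7 each on chromosomes 15 (−0.74) and 20 (−0.39), 4 on chromosome 11 (−0.30), 3 on chromosome 13 (−0.79) and 1 on chromosome 17 (−0.58). Of summed cell type markers, those of mature neurons, sustentacular cells, ciliated respiratory cells and skeletal muscle were higher and those of bone and cartilage lower in every old than in every adult rat, as given above. In these rats the skeletal muscle sum rested mainly on Tnnc2, at 4.16 in adult and 5.97 in old rats. The median change over the 6 measured muscle markers was −0.01 for adult minus old rats, so the sum does not stand for the list.

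The receptors of chromosome 5 from 60.2 to 76.8 Mb varied most among the adult rats, a pattern described after its values were seen and given without a test. Over these 14 receptors the median level was 0.09 in adult rat 13, −1.68 in rat 14, −1.28 in rat 15 and −2.77 in rat 16. It was 0.71, 1.57, 0.84 and 0.99 in the 4 old rats. Rat 13 was the highest adult rat for 12 of the 14 receptors and rat 16 the lowest for 13. The adult rats stood in the same order over all 209 receptors, with medians of −0.37, −0.89, −0.58 and −1.14 in rats 13 to 16, rat 13 being the highest for 93 and rat 16 the lowest for 124. The median range among adult rats was 2.45 and among old rats 0.93, beside 0.75 and 0.72 over all 209 receptors. In the same adult rats the summed level of mature neuron markers was 10.81, 10.56, 10.69 and 10.39, in the same order, and that of bone and cartilage markers was 11.30, 11.97, 11.38 and 12.19, in the reverse order. Their part in the receptor levels was not tested.

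The nostrils of a rat also differed in these receptors. The median difference of nostril A minus B was 0.71, −0.23, 1.53 and 1.45 in adult rats 13 to 16 and 0.71, 0.24, 1.14 and −1.34 in old rats 17 to 20. Nostril A was higher for 13, 4, 12 and 12 of the 14 receptors in the adult rats and for 11, 14, 13 and 0 in the old rats, so that in old rat 20 no receptor was higher in nostril A. Over all 209 receptors the same medians were −0.10, 0.13, 0.59 and 0.49 in adult rats and 0.22, 0.24, −0.10 and −0.08 in old rats. In the distal chromosome 5 cluster, at 139 Mb, the 8 medians were −0.33, 0.20, 1.13, 1.58, 0.04, 0.46, 0.12 and 0.46 in the same order.

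**Figure D5:**
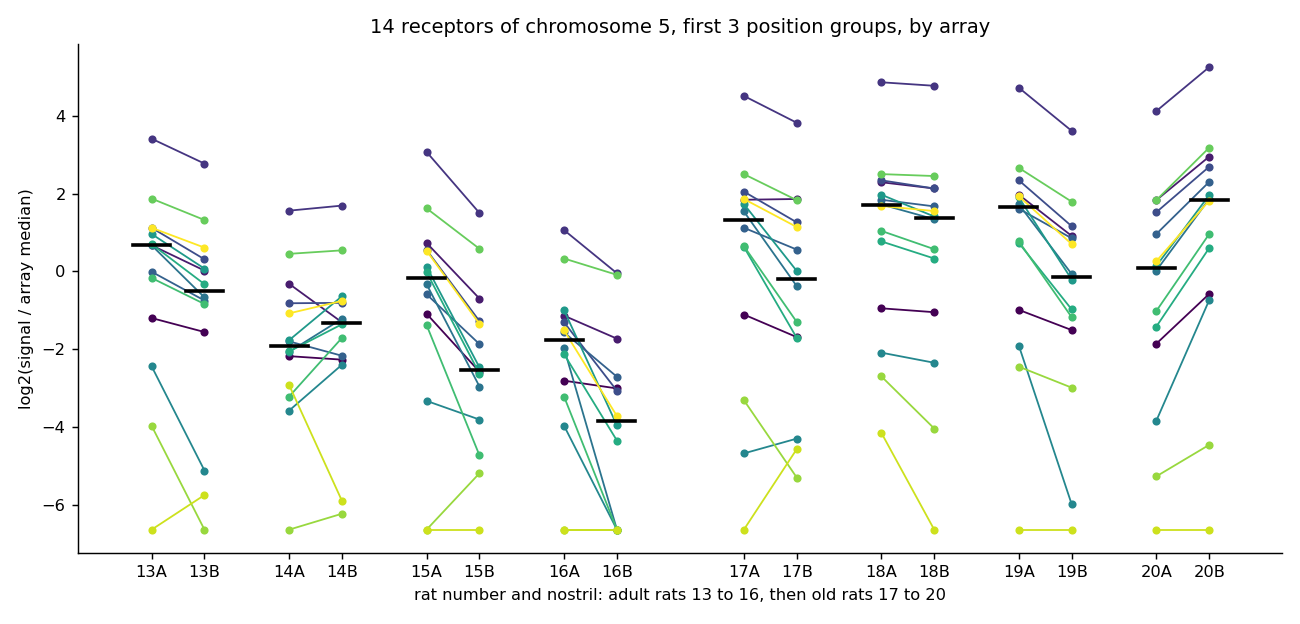
Level of the 14 receptors of chromosome 5 from 60.2 to 76.8 Mb on each array of the adult rats (13 to 16) and old rats (17 to 20), as log2 of signal over array median (y axis, the lowest possible value being −6.64). A and B are the nostrils, a line joins both arrays of a rat for 1 receptor and colours mark receptors. Black bars are medians, which in adult rats lie between 0.67 (array 13A) and −3.84 (array 16B).

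Olr837 (Or13c7e), above background on all 35 arrays, shows this order at a high signal. Pups had 0.61, 2.45 and 3.41, adult rats 3.09, 1.63, 2.28 and 0.50, and old rats 4.16, 4.81, 4.16 and 4.69. Old rats were above all others, 5.99-fold above adult rats (−2.58 ± 0.47 for adult minus old, adjusted p = 9.4e-05) and 3.94-fold above pups (adjusted p = 7e-05), and pups and adult rats overlapped. Olr844 (Or13c3e) had −4.51, −0.28 and 0.77 in pups, 0.00, −1.65, −1.64 and −4.31 in adult rats, and 0.58, 1.53, 0.83 and 0.94 in old rats. Its change between adult and old rats (−2.87 ± 0.84, adjusted p = 0.0077) lost its call when any old rat, or adult rat 14, 15 or 16, was left out. Olr854 (Or2k2), the lone gene at 76.8 Mb, had 0.86, −0.92, −0.41 and −2.62 in adult rats against 1.5, 1.61, 1.31 and 1.04 in old rats (−2.14 ± 0.60, adjusted p = 0.0056).

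Of these 14 receptors, 7 were called lower in adult than old rats. Without adult rat 14, adult rat 16 or old rat 18 the count was 4, and with the methods' t-test on the same values it was 0. The median change of −2.23 was −1.90 without adult rat 16.

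On chromosome 4, Olr801 (Or2r11) had −2.31, −0.83 and −0.26 in pups, −0.41, −2.28, −1.26 and −3.50 in adult rats, and 0.79, 1.65, 1.07 and 1.29 in old rats. The adult rats stood in the order of the medians over all 209 receptors, and old rats were 8.37-fold above them (−3.07 ± 0.48 for adult minus old, adjusted p = 1.6e-05). LOC298479 (Or10ak7d-ps1, a pseudogene of the distal chromosome 5 cluster) was above background on 7 old, 0 adult and 2 newborn arrays. Adult rats had −4.82, −4.77, −4.32 and −4.74 and old rats −1.60, −1.62, −1.76 and −2.38, a difference of at least 1.44-fold (adjusted p = 0.00069).

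The 3 receptors called higher in adult than old rats were Olr1690, Olr1733 and Olr1528. Olr1690 (Or14j5), in the chromosome 20 cluster, had −1.40, 0.52 and 1.31 in pups, 2.35, 2.63, 2.51 and 2.49 in adult rats, and 0.67, 0.69, 0.63 and 1.1 in old rats. The adult rats were above all pups and all old rats, by 4.91-fold (−2.30 ± 0.30 for newborn minus adult, adjusted p = 6.8e-07) and by 3.30-fold (1.72 ± 0.39, adjusted p = 0.00093), and pups overlapped old rats (−0.57 ± 0.30, adjusted p = 0.12). Its neighbour Olr1689, with which the probe shares 26 bases, changed by 1.11 in the same comparison and was not called. Olr1733, described above, had no old array above background (adjusted p = 4.1e-05 for the fitted change). Its adult mean of −2.23 did not exceed the detection level of the old arrays, so that not even a bound can be given. Olr1528 had no array above background at any age, and no fold is given for it.

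Among the 4 litters 10 of the 209 receptors differed (limma F test, adjusted p under 0.01), where 22.6% of all probes did. The most extreme was Olr390, with 1.61 to 1.90 in the 4 pups of L1 (mean 1.80 ± 0.13, SD), against means of 1.0 ± 0.08 in L2, 0.86 ± 0.13 in L3 and 0.74 ± 0.17 in L4 (adjusted p = 1.2e-07). No pup of L1 overlapped a pup of another litter. Olr1699 (Or10al4b) had −0.86 to 0.21 in L1 and means of 0.75, 0.76 and 0.56 in L2 to L4 (adjusted p = 0.00037). LOC298479 had −2.88 to −2.14 in L1 and litter means of −5.73, −5.02 and −5.89 in the others (adjusted p = 0.00033), with only 2 newborn arrays above background, both of L1. Olr1635 was lowest in L2 (mean −6.01 ± 0.88), with no newborn array above background (adjusted p = 2.6e-05). L1 was scanned on a day of its own among the litters, and with the scan day as a random block 2 of the 10 calls were made.

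Properties that the choice of genes did not use were compared with detection. The 52 receptors above background on every array had probes with a median GC content of 43.3%, the 142 detected on some arrays 40.0%, and the 15 detected on none 36.7%, all within 35.0% to 55.0%. Of the 15, 8 shared no run of 12 bases with another OR probe, as did 83 of all 209. The longest shared run was 30 bases, between Olr1562 and Olr1563, and 17 receptors shared at least 20 bases with another OR probe. How much of a signal came from a paralogue was not tested. Of the probes, 103 lay on the plus strand and 106 on the minus strand. The probe sequences come from the array annotation and the gene matches from RefSeq.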

How the data were processed

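Labelled RNA of 27 rats was hybridised to 35 1-colour arrays on 10 slides, read on 5 scan days. The deposited intensity values were made by the authors with Feature Extraction (9.5.1.1 for the adult arrays, 9.5.3.1 for the others), with the local background subtracted and the spatial trend removed within each array, and came with quality flags for each spot. The deposited matrix holds, per the study's methods, a ratio of signal to the array median and to a constant for each probe. All 41012 matrix lines matched a probe, the quotient of both values was the same on all arrays (SD of its log2 under 0.01) for 99.65% of probes, and this matrix served as an alternative.

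Of 45018 spots, the 43379 that were no controls were used, and 4189 outlier-flagged values in 732 probes were left out. Signals were divided by the array median, set to at least 0.01 of it and put on the log2 scale, and spots of a probe and both arrays of a rat were averaged. A linear model with 6 groups (L1 to L4, adult, old) was fitted over all probes with limma 3.58.1 (R 4.3.3, package data.table, version 1.17.8), and every adjusted p is from limma with Benjamini-Hochberg adjustment over all probes. A call needed an adjusted p under 0.01 and a 2-fold difference. The number of rats, and not reads, sets the precision.

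Above background means that at least 0.5 of a probe's spots passed 4 flags: significance over background, a level well over it, uniformity and no saturation. Where a group had no array above background, a bound is given in place of a fold, taking for that group the higher of its own signal and the lowest signal well above background on each array. The adjusted p beside a bound is that of the fitted change, and the bound itself can be under 2-fold. Position groups were split at gaps over 1 Mb. Counts and medians were written with Python 3.11.15, pandas 2.3.3 and numpy 2.4.6. The code was tested on simulated data with known changes. Columns not matched to a sample numbered 0.

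The receptors and marker lists were chosen with earlier results of these data known. Named in the text are the 3 receptors that the study singles out, for each chromosome the 2 called, non-overlapping and expressed receptors with the largest fall and the 1 with the largest rise in newborn rats against each older group, the 3 largest in each direction between adult and old rats, the 3 smallest p among litters, all receptors of chromosomes with 1 or 2, and those expressed at only one side of the age comparison. Olr837, Olr854, Olr1543, Olr1622, Olr1679, Olr1699, Olr866, Olr1528, Olr1689 and the receptors named only for sequence, for detection on no array or as exceptions were chosen after their values were seen. Alternatives were scaling, background correction, a detection floor, probe filters, slide, scan day and rat as random blocks, the methods' t-test, the groups in the fit, and each rat left out. Correlations within rat, slide and scan day were 0.46, 0.21 and 0.17.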

Additional observations from a re-analysis of the deposited data

Results flagged for a closer look

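In 88 groups of 4 or 5 values tested for a single value far from the rest, 7 stood out, where chance gives about 1 in 20. Adult rat 16 was low for Olr1595 (−4.34) and for the number of receptors above background (136.5). Adult rat 13 was high for Olr810 (−2.67) and adult rat 15 for LOC298479 (−4.32), both without an adult array above background. Old rat 20 was low for Olr1660 (1.46) and high for Olr1690 (1.1), and old rat 18 was high for Olr392 (−5.61), which no array detected.

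The 10 receptors that differed among the 4 litters, by the limma F test already given above, were Olr390 (adjusted p = 1.2e-07), Olr1635 (2.6e-05), LOC298479 (0.00033), Olr1699 (0.00037), Olr1538 (0.002), Olr1562 (0.0021), Olr865 (0.0036), Olr1692 (0.0038), Olr1744 (0.0039) and Olr1621 (0.0055). Levels of adult rats do not enter the contrasts of that test. L1 had the highest or the lowest litter mean for all of these but Olr1635, and the part of its scan day was not tested apart from the litter.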

How the results depend on the processing

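Most counts held within 1.5 times, and among named receptors 2188 values kept their call, 80 lost it, 2 gained it and 0 turned. Most of these settings left out a single rat, which changes the fit little. With normexp correction and quantile normalization only 26 calls of named receptors were kept and 32 were lost. The detection floor kept 42 and lost 16. The cause of each shift was not tested, except that a filter tests fewer probes. With normexp correction and quantile normalization, newborn rats had 38 receptors lower and 0 higher than adult rats and 54 lower and 0 higher than old rats, adult rats had 9 lower and 1 higher than old rats, and 6 differed among litters. Over probes expressed in all 6 groups the counts were 42 and 1, 66 and 0, 25 and 1, and 4. Receptors higher in newborn than adult rats numbered 5 with 75th percentile scaling, 1 with the detection floor and 1 with the methods' t-test. Those higher than in old rats were 1 with the detection floor, 2 with slide as a block and 2 for L1 alone. Adult against old rats gave 22 lower with scan day as a block and 14 with the methods' t-test, and 5 higher with 75th percentile scaling, 5 with quantile normalization, 7 with only these groups fitted and 1 counting receptors expressed in adult rats, a setting chosen after seeing the data. Litters gave 4 with slide as a block, 2 with scan day and 6 with only the litters fitted.

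By the positive flag alone, 166 were expressed in all 4 litters, 161 in all 6 groups, 5 in adult and old rats only and 2 in litters only, with 176, 187 and 192 per newborn, adult and old array. Requiring every array of a group gave 52 in all 6 groups, and any array 125. A single detection level for all arrays, also chosen after seeing the data, gave 133 per adult and 151 per old array.

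The detection floor moved the medians of all receptors to −0.53 (newborn minus adult), −1.33 (newborn minus old) and −0.42 (adult minus old). In the same order it gave −0.86, −1.90 and −0.52 on chromosome 4, −1.03, −1.66 and −0.23 on chromosome 11, and −0.37, −1.04 and −0.33 on chromosome 15. Against adult and old rats it gave −1.08 and −1.22 on chromosome 9 and −0.79 and −1.27 on chromosome 20. Against old rats alone it gave −0.88 on chromosome 5 (adult minus old −0.73), −1.13 on chromosome 13 and −2.43 on chromosome 17. Receptors above background in both groups gave −1.44, −0.86 and −1.1 against adult rats on chromosomes 4, 15 and 20 and −2.27 against old rats on chromosome 11.

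Leaving out each rat in turn gave 85 to 102 lower and 6 to 12 higher in newborn than adult rats, 135 to 144 and 3 to 4 against old rats, and 25 to 42 and 3 to 4 for adult against old rats, the 25 being without adult rat 16. Litters gave 6 (without L1 rat 11) to 17 (without L1 rat 10). Expressed receptors were 76 to 88 in all litters, 137 to 147 in adult rats, 147 to 153 in old rats, 75 to 84 in all 6 groups, 15 to 20 in adult and old rats only and 3 to 6 in litters only. No paired analysis was possible because the numbers in the labels name single rats and are not shared between groups.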
